A study of Rattus norvegicus with 18 samples.

Results

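The secretory lineage transcription factors are the DNA-binding proteins that set which epithelial cells of the gut become goblet cells, which make mucus, or enteroendocrine cells, which make hormones. The 10 genes listed for this group were Atoh1, Neurog3, Neurod1, Spdef, Gfi1, Hes1, Pax6, Isl1, Insm1 and Sox9, and every probe set (the group of short probes that measures a transcript on the array) that the array annotation gives to exactly 1 of these symbols was taken, low signals included. This gave 9 probe sets of 7 genes among 31042 probe sets that are not controls. Gfi1 and Isl1 had 2 probe sets each. Atoh1, Insm1 and Sox9 were given no probe set by that annotation and are not analysed here. The expression of these genes was measured on 18 Affymetrix rat arrays, 9 of distal and 9 of proximal colonic mucosa, scraped over 4 cm of each region from the same 9 male Sprague Dawley rats. The rats were fed modified AIN-93G for 10 days and then received azoxymethane, a colon carcinogen, under the skin at 15 mg per kg body weight, 6 h before they were killed. No rat without azoxymethane was among the samples, so the values describe the regions after the injection. The scrapings hold all cells of the mucosa, so fewer cells of a type and less RNA per cell cannot be told apart in any value given here.

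In the intestinal crypt, cells choose between absorptive and secretory fates through Notch signalling. Notch receptors that are engaged by Delta or Jagged ligands release a fragment that joins Rbpj on DNA and switches on Hes1, a repressor, and Hes1 holds down Atoh1, the factor that opens the secretory fate. Downstream of Atoh1, Gfi1 and Spdef act toward goblet cells, while Neurog3 starts the enteroendocrine fate and is followed by Neurod1, Pax6, Isl1 and Insm1, which take part in the making of hormone cells. Sox9 is found in progenitor cells at the crypt base.

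The stretches of DNA around the start sites of 3 of these genes are shown because the 2 factors of the enteroendocrine cascade with the lowest distal levels relative to proximal colon, Neurod1 and Neurog3, are basic helix-loop-helix proteins that bind E-boxes, and because Hes1 is the classical target of Rbpj. The sequences are from RefSeq on build GRCr8 and run 5′ to 3′ on the strand of the gene, from 250 bases before to 50 bases after the start. The capitals mark E-boxes (CANNTG, its own reverse complement) in Neurod1 and Neurog3 and the Rbpj core (TGGGAA, searched on both strands) in Hes1.
Neurod1, chr3:84770405-84770704, minus strand: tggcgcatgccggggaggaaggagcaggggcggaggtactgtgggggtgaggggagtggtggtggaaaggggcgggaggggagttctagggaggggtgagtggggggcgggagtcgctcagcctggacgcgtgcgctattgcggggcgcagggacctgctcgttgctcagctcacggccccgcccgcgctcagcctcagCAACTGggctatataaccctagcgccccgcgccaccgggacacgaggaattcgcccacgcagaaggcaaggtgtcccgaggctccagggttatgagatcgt
Neurog3, chr20:30622283-30622582, plus strand: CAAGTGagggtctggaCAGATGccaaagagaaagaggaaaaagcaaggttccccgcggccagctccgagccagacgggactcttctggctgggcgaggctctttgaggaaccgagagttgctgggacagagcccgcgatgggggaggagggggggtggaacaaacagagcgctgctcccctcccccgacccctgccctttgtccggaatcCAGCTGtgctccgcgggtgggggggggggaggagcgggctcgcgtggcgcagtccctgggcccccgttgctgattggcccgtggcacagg
Hes1, chr11:84212996-84213295, minus strand: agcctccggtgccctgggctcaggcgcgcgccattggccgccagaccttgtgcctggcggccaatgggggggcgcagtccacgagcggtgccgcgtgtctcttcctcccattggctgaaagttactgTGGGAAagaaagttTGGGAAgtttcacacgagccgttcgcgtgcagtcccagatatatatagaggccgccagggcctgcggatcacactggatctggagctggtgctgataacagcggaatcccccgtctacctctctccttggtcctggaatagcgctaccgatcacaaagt
Neurod1 held 1 E-box, which begins 51 bases before the start, and Neurog3 held 3, the last of them 40 bases before it. Isl1 also held 1 E-box, and Spdef, Gfi1, Hes1 and Pax6 held none. Of 33469 rat promoters of this length, 72.1% held an E-box. The Rbpj core stood in 2 copies in Hes1, beginning 123 and 109 bases before the start, and 25.7% of the promoters held at least 1. Spdef also held 2 copies of this core and Pax6 held 1. The form of the E-box often bound by Neurog and Neurod factors (CAGATG, both strands, a subset of CANNTG) occurred in 1 of the 7 measured genes, Neurog3. This share is near that of all promoters, 16.6%. The motif bound by Hes factors (CACNAG, both strands) occurred in 43.1% of all promoters and in 4 copies in Hes1 itself. Gfi1 held 2 copies of it, and Neurod1, Pax6 and Isl1 held 1 each. These matches describe letters in these stretches only.

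Levels are given as deposited intensities and, for comparisons, as log2 levels, that is log2(intensity + 16) after quantile normalization, which gives all arrays the same distribution. Every difference is distal minus proximal on this scale, which understates the change of genes with low signal. Differences were tested with limma over all probe sets, without a term for the rat, so the p values and SEs are unpaired. A gene passed at an adjusted p below 0.05 (Benjamini-Hochberg). Probe sets in the lowest 30% by mean level (below a log2 level of 5.54) were left out of the main test. Of the 9 probe sets, 5 were above this filter and 4 below it, which left 4 of the 7 measured genes in the main test. The values of Neurog3, Pax6 and Isl1 come from the same test run without the filter.

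Some arrays stood apart from the others. The proximal arrays of rats 3 and 6 had log2 levels of 4.57 and 4.27 for Hoxb13, a gene of the posterior gut, against 6.65 to 9.57 in the other 7 proximal arrays. The mean log2 level of 12 smooth muscle genes was 10.09 and 10.03 in the distal arrays of rats 3 and 7 and 12.11 in the proximal array of rat 3, against 7.09 to 8.97 in the other 15 arrays. The mean of 7 epithelial genes lay between 12.94 and 13.03 in distal and between 12.77 and 13.08 in proximal arrays. The trimmed mean of the deposited intensities ran from 210.3 to 341.2 over the distal arrays and from 257.5 to 339.7 over the proximal arrays, so the arrays were not on a common scale as deposited.

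The comparison between the regions asks how the transcripts of the secretory programme are placed along the colon. Neurod1 was much lower in distal colon, while Hes1, Spdef and Gfi1 did not pass the test. Of the 4 genes tested, 1 passed, against 30.8% of the 11407 genes tested. Neurog3, which lay below the filter, also had lower values in distal colon, close to the threshold.

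Neurod1 (probe set 1387288_at), a basic helix-loop-helix factor that acts after Neurog3, had deposited intensities of 40.7 to 110.3 in distal colon (median 50.7) and of 150.5 to 398.0 in proximal colon (median 298.2). The regions did not overlap: the highest distal array, that of rat 1, lay below the lowest proximal array, that of rat 10. How many of all probe sets had regions without overlap was not counted, here or for the genes below. The mean log2 level of Neurod1 was 6.31 ± 0.43 in distal and 8.12 ± 0.40 in proximal colon (SD, n = 9 each). The difference was -1.81 ± 0.18 (SE), or 3.51-fold lower in distal colon, with a limma adjusted p of 4.59e-07. It was lower in distal colon in 9 of 9 rats, with differences of -2.62 to -1.20 within a rat. Over 19 alternative settings the difference ran from -2.05 to -1.35 and the adjusted p stayed at or below 5.98e-06.

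Within each region the rats also differed in Neurod1. Distal log2 levels of 6.72 to 7.00 were found in rats 1, 2 and 4, and the lowest distal level, 5.83, in rat 7. In proximal colon rats 2, 5 and 6 stood close together at 8.48 to 8.50, and rat 10 was lowest at 7.38. The SD within the regions was 0.42, which was larger than that of 83.5% of the 1000 probe sets closest to it in mean level (median 0.27). The other factors above the filter varied less.

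Neurog3 (1369853_at), the factor that starts the enteroendocrine fate and is present only briefly in each cell, had intensities of 1.46 to 19.2 in distal colon (median 4.21) and of 4.65 to 42.8 in proximal colon (median 12.6). The distal value of 19.2 belonged to rat 10, and the next highest distal value was 7.13. In proximal colon rats 2, 7, 8 and 10 had 28.9 to 42.8, while the other 5 had 4.65 to 12.6, so that the regions overlapped. The mean log2 level was 4.43 ± 0.37 in distal and 5.07 ± 0.60 in proximal colon (SD, n = 9 each). The difference was -0.63 ± 0.22 (SE), with lower values in distal colon in 8 of 9 rats and a limma adjusted p of 0.0497 without the filter, where 18.3% of 31042 probe sets passed, 9.67% as higher and 8.58% as lower in distal colon. It passed under 8 of 17 alternative settings, which gave adjusted p values of 0.0114 to 0.144, so the call depends on the setting. Without rat 1, 2, 5, 7 or 8 the adjusted p was 0.0856 to 0.144. Its mean level lay below the filter, as did every distal array, and the proximal arrays of rats 2, 7 and 8 lay above it.

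Pax6 (1369242_at), a homeobox factor of hormone cells, had intensities of 10.1 to 26.8 in distal colon (median 20.7) and of 13.4 to 33.3 in proximal colon (median 26.7). The regions overlapped over nearly their whole range. The difference was -0.07 ± 0.13 (SE, n = 9 each; limma adjusted p = 0.773, 95% interval -0.35 to 0.21). Its sign turned to 0.01 when rat 8 was left out.

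Isl1, a LIM-homeobox factor of hormone cells and neurons, had signals near the bottom of the scale on both probe sets. On 1369681_at the intensities were 6.79 to 34.6 in distal colon (median 19.7) and 5.20 to 24.0 in proximal colon (median 13.1). The difference was 0.38 ± 0.16 (SE, n = 9 each; limma adjusted p = 0.108), with higher values in distal colon in 8 of 9 rats. On 1396895_at the intensities were 3.77 to 46.0 in distal colon (median 14.1) and 3.62 to 21.7 in proximal colon (median 11.4), with a difference of 0.32 ± 0.21 (limma adjusted p = 0.325) and higher values in distal colon in 5 of 9 rats. Neither probe set passed. The first set had its highest distal levels in rats 2, 6 and 7, the second in rats 3, 5 and 10, so the sets did not rank the rats alike. Without rat 5 the adjusted p of the first set was 0.0468.

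**Figure D1:**
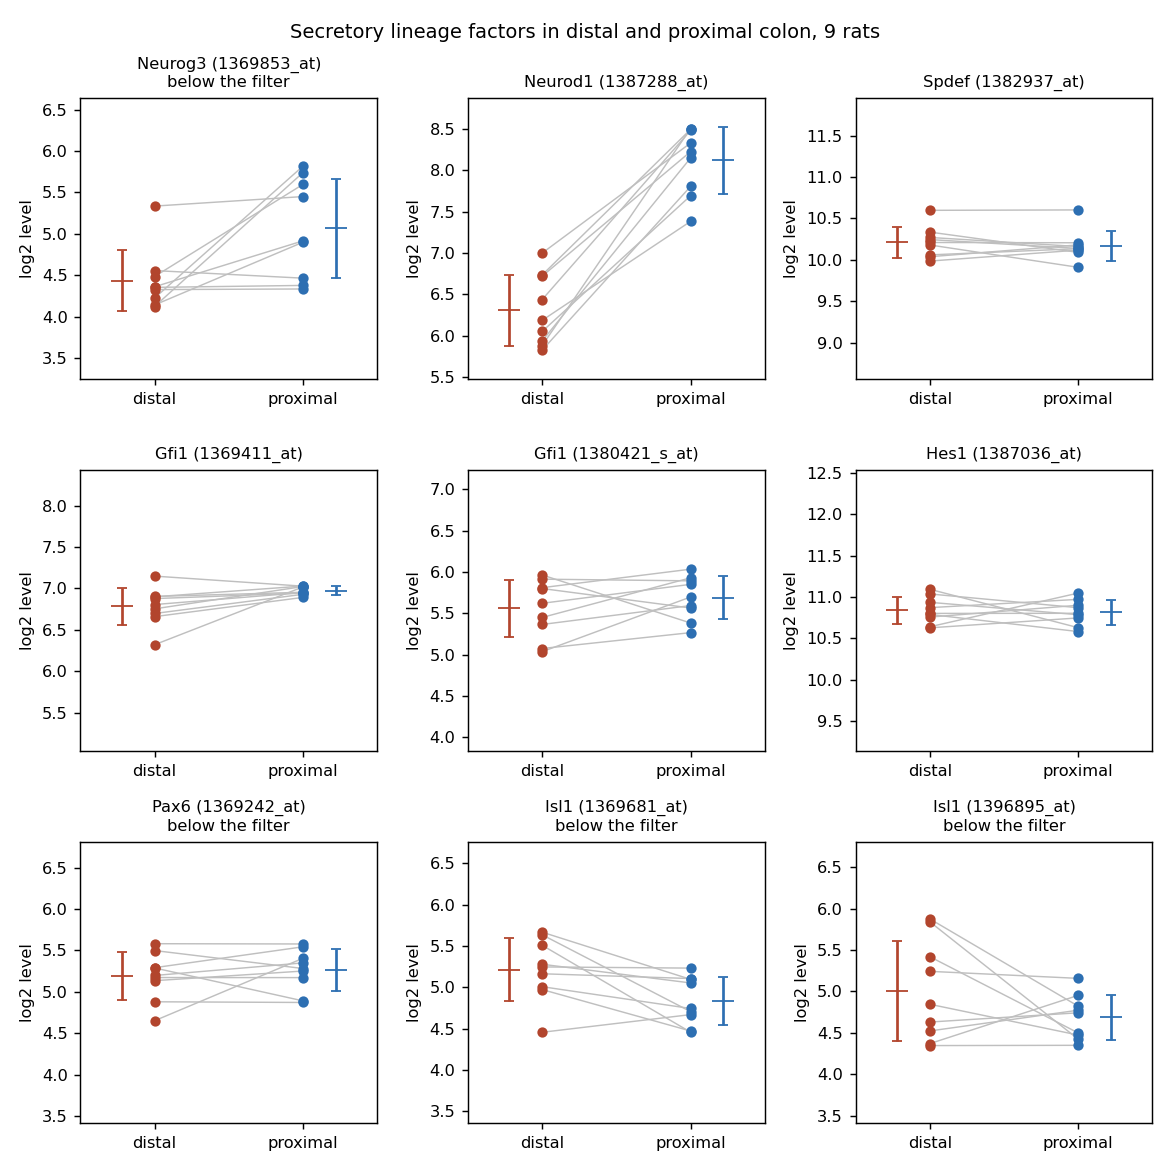
Log2 level of each of the 9 probe sets in distal (left, red) and proximal colon (right, blue), 1 point per array, with a grey line joining the 2 arrays of a rat and bars showing the mean and SD (n = 9 each). All panels span the same number of log2 units. In Neurod1 all distal points lie below all proximal points, and in the other panels the regions overlap. The share of all probe sets without overlap was not counted.

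Hes1 (1387036_at), the Notch effector that represses Atoh1, was well above the filter. Its intensities were 1334 to 2276 in distal colon (median 1833) and 1367 to 2366 in proximal colon (median 1874). The mean log2 level was 10.84 ± 0.16 in distal and 10.82 ± 0.15 in proximal colon (SD, n = 9 each), and 4 of 9 rats had the higher value in distal colon. The difference was 0.02 ± 0.07 (SE; limma adjusted p = 0.842, 95% interval -0.13 to 0.17). Its sign turned with the scaling as deposited (-0.08).

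Spdef (1382937_at), an ETS factor of goblet cell maturation, had intensities of 707.2 to 1425 in distal colon (median 1155) and of 977.4 to 1627 in proximal colon (median 1150). The regions overlapped, and 5 of 9 rats had the higher log2 level in distal colon. The mean log2 level was 10.21 ± 0.19 in distal and 10.17 ± 0.18 in proximal colon (SD, n = 9 each). The difference was 0.04 ± 0.08 (SE; limma adjusted p = 0.756, 95% interval -0.13 to 0.22), and it was -0.05 with the scaling as deposited. In rat 3 both arrays were high, at 10.60 in distal and 10.60 in proximal colon. Those 2 arrays were also among the 3 with the highest smooth muscle means, and the part of this in the Spdef level was not tested.

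Gfi1, a zinc finger repressor that acts in secretory progenitors and also in blood cells, had 2 probe sets above the filter. On 1369411_at the intensities were 64.2 to 118.2 in distal colon (median 96.3) and 95.02 to 133.3 in proximal colon (median 119.0). Proximal log2 levels were close together, at 6.89 to 7.03, and 6 of the 9 distal arrays lay below all of them. The difference was -0.19 ± 0.09 (SE, n = 9 each; 8 of 9 rats lower in distal colon) and did not pass (limma adjusted p = 0.130). It stayed negative and did not pass under 19 alternative settings (-0.32 to -0.12, adjusted p 0.0675 to 0.297). The SD of this set within the regions, 0.16, was larger than that of only 2.70% of the 1000 probe sets of like level. On 1380421_s_at the intensities were 14.0 to 52.0 in distal colon (median 27.9) and 24.0 to 50.8 in proximal colon (median 37.9), with a difference of -0.13 ± 0.15 (limma adjusted p = 0.565). The median over 15 leukocyte genes tested differed by 0.05, and 0 of them passed as higher and 2 as lower in distal colon (Gzma and Gzmb, granzymes of killer lymphocytes), 13.3% in all against 30.8% of all genes. The count of lower genes was 0 with the lowest 50% left out and 4 with the rat as a block, and Gzmb did not pass without rat 5, 6 or 7 (adjusted p = 0.0518 to 0.0523).

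**Figure D2:**
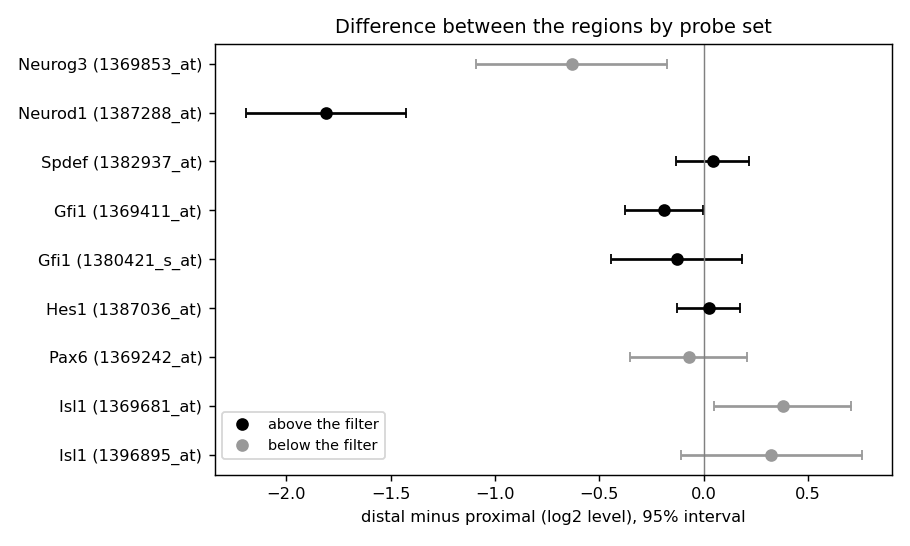
Distal minus proximal difference in log2 level of each probe set, with its 95% interval from limma (n = 9 arrays per region). Black marks probe sets above the filter and grey those below it, taken from the test without the filter. The interval of Neurod1 runs from -2.19 to -1.43, and those of Hes1 and Spdef span 0. The intervals of Neurog3 (-1.09 to -0.18), Gfi1 1369411_at (-0.38 to -0.002) and Isl1 1369681_at (0.05 to 0.71) leave out 0. The intervals are not adjusted for the number of probe sets tested.

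Other factors of the secretory lineages were then examined. Of 29 listed, 23 had a probe set and 17 were above the filter. Among these 17, 4 were higher and 4 lower in distal colon, 47.1% in all against 30.8% of all genes tested, with a median difference of -0.10 against 0.01 for all genes. Pax4, a paired-homeobox factor of hormone cell precursors, was lower in distal colon (-0.83 ± 0.18, SE, n = 9 each, limma adjusted p = 0.00220, 9 of 9 rats). Its log2 levels were 4.34 to 5.71 in distal and 5.74 to 6.93 in proximal colon, without overlap. The distal mean, 5.32, was below the level of the filter, so Pax4 entered the main test through its proximal levels. No fold is given for it, because the fold depends on the pseudocount. Tox3 was 1.64-fold lower (-0.72 ± 0.10, adjusted p = 3.06e-05, limma; 9 of 9 rats). Rfx3, a factor of ciliated and endocrine cells, was 1.35-fold lower but had an adjusted p of 0.0529 without the proximal arrays of rats 3 and 6. Xbp1, which expands the secretory machinery, had a difference of -0.18 (limma adjusted p = 0.0158), with adjusted p values of 0.154 with arrays centred on their medians and 0.0562 with the scaling as deposited. Among the 6 genes below the filter, Nkx2-2, another homeobox factor of hormone cells, had a difference of -0.60 (limma adjusted p = 0.0269 without the filter; lower in 8 of 9 rats), and adjusted p values of 0.0638 to 0.108 when rat 3, 5, 7 or 10, or the 3 arrays of high smooth muscle mean, were left out.

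Foxa2, a forkhead factor that acts in goblet and hormone cells, had the largest difference of this list in the other direction. It was 2.65-fold higher in distal colon, with log2 levels of 9.95 to 10.65 in distal and 8.34 to 9.40 in proximal colon, no overlap, and the same direction in 9 of 9 rats (limma adjusted p = 2.10e-07). Sox4 (0.38), Elf3 (0.28) and Hes6 (0.18), the last a relative of Hes1 found in secretory precursors, were also higher in distal colon. These 3 did not pass with the scaling as deposited, where adjusted p values were 0.170, 0.507 and 0.716. Sox4 also had an adjusted p of 0.0530 without rat 8, and Hes6 had 0.0517 to 0.0742 without rat 2, 3, 4, 8 or 10. Klf4, a zinc finger factor of goblet cells with a high signal, had a difference of 0.05 (limma adjusted p = 0.733), whose sign turned with the scaling as deposited, without rat 3, without the 3 arrays of high smooth muscle mean and without the proximal arrays of rats 3 and 6.

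The genes of the Notch pathway were taken as a list of 49 besides Hes1, of which 40 had a probe set and 35 were above the filter. Among these 35, 7 were higher and 3 lower in distal colon, or 28.6% against 30.8% of all genes, a share near that of the whole array, with a median difference of 0.06. Dll1, the Delta ligand that secretory precursors show to their neighbours, was 1.91-fold higher in distal colon (0.93 ± 0.24, SE, n = 9 each, limma adjusted p = 0.00677, 8 of 9 rats). Its log2 levels were 6.25 to 7.57 in distal and 4.82 to 6.54 in proximal colon. The proximal levels lay in part below the level of the filter, so its fold depends on the pseudocount. Jag1, a Jagged ligand, was 1.45-fold lower in distal colon (-0.53 ± 0.13, limma adjusted p = 0.00590; 9 of 9 rats). The ligands Dll4 (0.15) and Jag2 (0.14) did not pass (limma adjusted p = 0.344 and 0.427), and Dll3 was below the filter. Of 4 Tle genes, corepressors that act with Hes proteins, Tle3 was 1.42-fold higher (limma adjusted p = 0.00104) and Tle2 1.53-fold lower in distal colon (limma adjusted p = 0.00547), while Tle1 (-0.12) and Tle4 (0.28) did not pass (limma adjusted p = 0.229 and 0.0827). Distal log2 levels of Tle2 ran from 5.15 to 6.48, in part below the level of the filter, so its fold also depends on the pseudocount. Dlk1 (0.50) was higher in distal colon, as were Adam17, a protease that can cut Notch receptors (0.35), Poglut1 (0.28) and Rfng (0.22), which add sugars to them, and Hes6. With the scaling as deposited Adam17, Poglut1, Rfng and Hes6 did not pass (adjusted p = 0.150, 0.360, 0.525 and 0.716), and the count of higher genes was 3, at a scaling where 3.63% of all probe sets passed as higher in distal colon. Psenen, a subunit of gamma-secretase, the enzyme that frees the Notch fragment, was 1.21-fold lower in distal colon (limma adjusted p = 0.000467), but had an adjusted p of 0.0710 with arrays centred on their medians. Ncstn, another subunit, had a difference of 0.04 (limma adjusted p = 0.603), whose sign turned with the scaling as deposited and with the mean of its probe sets. Among the 5 genes below the filter, the receptor Notch2 had a difference of 0.58 (limma adjusted p = 0.00391 without the filter; higher in distal colon in 9 of 9 rats).

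The products of enteroendocrine cells were set beside Neurod1. Of 34 listed genes, 28 had a probe set and 22 were above the filter, and 12 of these were lower and 1 higher in distal colon, 59.1% in all against 30.8% of all genes, with a median difference of -0.65. Over the 19 alternative settings 10 to 14 were lower and 1 higher. Ghrl, the ghrelin precursor, had log2 levels of 4.26 to 4.82 in distal colon, all below the level of the filter, and of 7.43 to 9.83 in proximal colon (limma adjusted p = 2.26e-10), and no fold is given because the distal signal is so low that it depends on the pseudocount. Chga and Chgb, proteins of hormone granules, and Slc18a1, which loads monoamines into vesicles, were 5.12-fold, 4.46-fold and 3.72-fold lower in distal colon (limma adjusted p = 3.70e-07, 4.77e-09 and 3.25e-07; 9 of 9 rats each). Among the other hormones, Gcg, the precursor of glucagon-like peptides, was 3.51-fold lower in distal colon, Sst, somatostatin, 2.77-fold lower and Pyy, peptide YY, 2.17-fold lower (limma adjusted p = 2.19e-05, 6.23e-06 and 0.00549, each lower in 9 of 9 rats). Fev, a transcription factor of serotonin cells that was listed with the products, was 1.84-fold lower (-0.88 ± 0.17, SE, n = 9 each, limma adjusted p = 0.000590). Distal log2 levels of Fev ran from 5.19 to 6.31, in part below the level of the filter, so its fold depends on the pseudocount. Nts, neurotensin, was below the filter, with a difference of -1.17 (limma adjusted p = 0.000124 without the filter). Pam, which adds the amide end to many peptide hormones, was 1.69-fold higher in distal colon (limma adjusted p = 2.13e-07). The direction toward proximal colon of this list was known from earlier results of these data and is not independent support for Neurod1. The mean log2 level of the 22 genes lay between 6.82 and 7.29 in distal arrays and between 7.63 and 8.40 in proximal arrays, so the regions did not overlap. The same was true of absorptive colonocyte genes, of which 10 of 15 were lower and 2 (Ceacam1 and Guca2b) higher in distal colon, 80% in all, with a median difference of -0.49. Their mean log2 level lay between 9.14 and 9.90 in distal arrays and between 10.22 and 10.97 in proximal arrays. Fabp1, a fatty acid binding protein of absorptive cells, was 25.5-fold lower in distal colon (limma adjusted p = 3.85e-11).

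Neurod1 and Isl1 are also made in neurons, so neuron and glia genes are given beside them. Of 18 with a probe set, 9 were above the filter, and 0 of these passed in either direction, against 30.8% of all genes (median difference -0.21). Their mean log2 level was 5.52 to 6.03 in distal colon (median 5.89) and 5.64 to 7.15 in proximal colon (median 5.89). Of the 9 genes below the filter, Snap25, a protein of synaptic vesicle release, had a difference of -1.66 (limma adjusted p = 0.00395 without the filter; lower in distal colon in 9 of 9 rats), with log2 levels of 4.22 to 5.32 in distal and 4.82 to 9.08 in proximal colon. The difference in Neurod1 was -1.76 without the 3 arrays of high smooth muscle mean and -1.82 without the proximal arrays of rats 3 and 6. The part of neuron transcripts in the Neurod1 difference was not tested.

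The products of goblet cells were set beside Spdef and Gfi1. Of 26 listed genes, 20 were above the filter, of which 3 were higher (Ccl6, Tff3 and Tspan13) and 8 lower in distal colon, 55% in all against 30.8% of all genes, with a median difference of -0.09. Spink4, a secreted inhibitor of proteases, was 7.13-fold lower in distal colon and Zg16, a lectin of the mucus, 3.65-fold lower (limma adjusted p = 2.50e-06 and 9.00e-06). Distal log2 levels of Spink4 ran from 4.60 to 7.30, in part below the level of the filter, so its fold depends on the pseudocount. Muc2, the main gel-forming mucin, had a difference of -0.20 (limma adjusted p = 0.00369), but an adjusted p of 0.109 with arrays centred on their medians. With the scaling as deposited 0 goblet genes were higher in distal colon. Ccl6 did not pass under 5 of 19 alternatives and Tspan13 under 11 of 19, no filter and median centring among them. Tff3, a trefoil peptide packed with the mucin, had a level 1.33-fold higher in distal colon (limma adjusted p = 0.000431), which did not pass with the scaling as deposited (adjusted p = 0.119). Clca1, a secreted mucus protein, and Agr2, a mucin-folding enzyme, had the highest signals of the list and did not pass (limma adjusted p = 0.707 and 0.131). The mean log2 level of the 20 genes lay between 9.96 and 10.42 in distal arrays (median 10.25). In proximal arrays it lay between 10.35 and 10.84 (median 10.54). It was lower in distal colon in 9 of 9 rats. This mean includes the genes with the largest differences, Spink4 (-2.83), Zg16 (-1.87), Slc12a8 (-1.03) and Gcnt3 (-1.01). The 3 higher genes had smaller differences, and the list median was -0.09, so the mean does not describe the list as a whole. Thus single goblet genes differed by several fold in the arrays in which Spdef had a difference of 0.04.

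**Figure D3:**
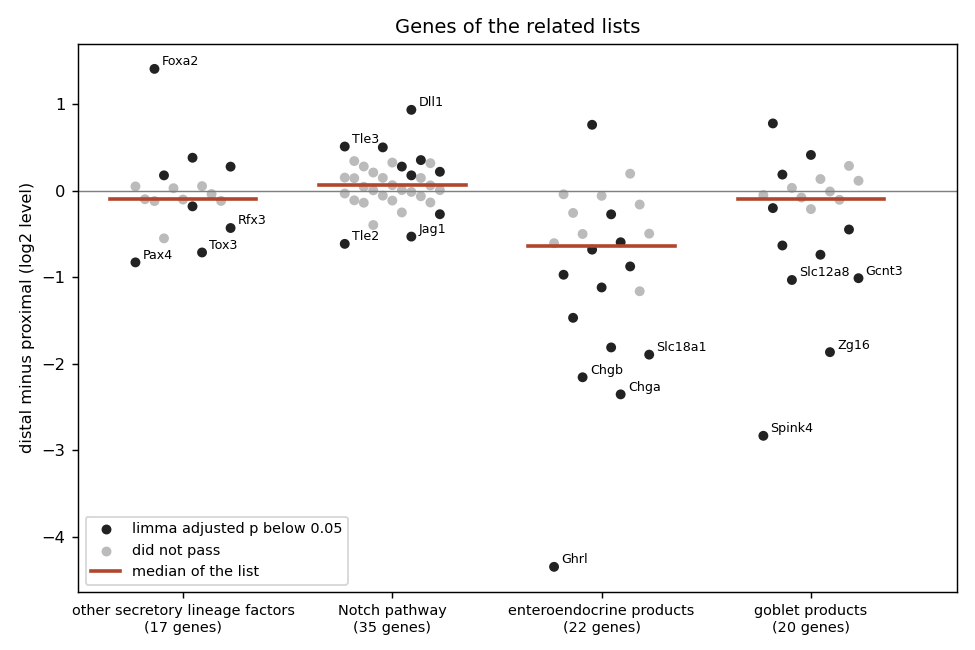
Distal minus proximal difference in log2 level of the genes above the filter in 4 lists: other secretory lineage factors (17 genes), Notch pathway (35), enteroendocrine products (22) and goblet products (20). Black points passed limma at an adjusted p below 0.05, grey points did not, the red line is the median of a list, and the genes with the largest differences are named. The enteroendocrine median lies at -0.65, and the other medians lie between -0.10 and 0.06.

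Crypt base and tuft cell genes are given for the remaining lineages. Of 14 crypt base and progenitor genes, 4 were higher (Lgr5, Ascl2, Ephb3 and Myc) and 6 lower in distal colon, 71.4% in all against 30.8% of all genes. Myc did not pass with the scaling as deposited (adjusted p = 0.153), nor Top2a without the 3 arrays of high smooth muscle mean (adjusted p = 0.0607), and Smoc2 did not pass under 9 of 19 alternatives (adjusted p = 0.0553 to 0.104). Lgr5, a stem cell receptor, was 1.86-fold higher and Ascl2, a stem cell factor, 1.57-fold higher, while Cd44 was 3.25-fold lower, Prom1 1.95-fold lower and Mki67, of cycling cells, 1.68-fold lower in distal colon. Of 9 tuft cell genes, Dclk1 was 1.68-fold lower in distal colon (limma adjusted p = 3.99e-05) and none was higher, 11.1% in all against 30.8% of all genes. The count of lower genes was 1 to 3 over 19 alternatives.

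The genes whose levels followed each factor most closely were sought in both regions separately, by the lower of the 2 Pearson correlations over the 9 rats of each region, among 11297 genes. For Neurod1 these were Chgb (r = 0.86 in distal and 0.84 in proximal colon), Pyy (0.89 and 0.81) and Nudt14 (0.87 and 0.80). Spearman's rho for Chgb was 0.92 in distal and 0.87 in proximal colon, and for Pyy 0.93 and 0.73. When the 2 rats with Neurod1 farthest from its median were left out, r for Chgb was 0.73 in distal and 0.65 in proximal colon, and for Pyy 0.79 and 0.60. The genes were picked as the closest of all, so no test is given, and both levels of a point come from the same array. Of the 22 enteroendocrine products, Gcg (0.70 and 0.78) ranked 31st and Chga (0.86 and 0.63) 89th of 11296 genes, and 12 of the 22 had r above 0 in both regions, against 34.3% of all genes. Scg3, Cpe, Syp, Gal and Gip were among those that did not.

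**Figure D4:**
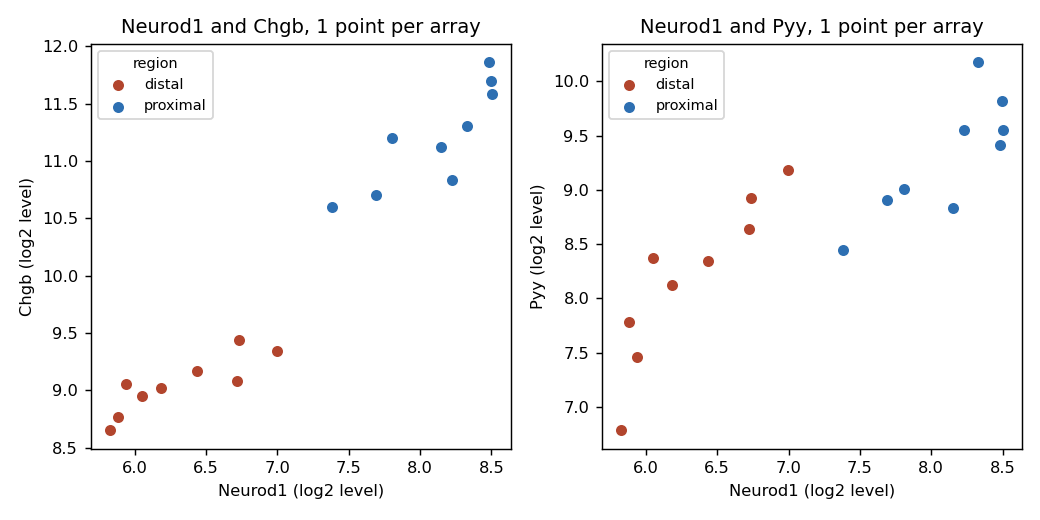
Log2 level of Neurod1 (horizontal) against Chgb (left) and Pyy (right), 1 point per array, distal in red and proximal in blue. Within each region the rats with more Neurod1 tended to have more Chgb and Pyy, which were picked as the closest of all genes searched. There were exceptions: in proximal colon rat 5 had the most Neurod1 (8.50) but less Pyy than rat 1 (9.55 against 10.17). The 9 distal points of Neurod1 lie between 5.83 and 7.00.

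For the other factors the closest genes were of no list used here. They were Nedd4, Fgfr1 and Zfp692 for Spdef, with r of 0.77 or more in both regions, Cemip, Smg8 and Elmo3 for Gfi1 (0.77 or more), and Cpb1, Lrrc27 and Ftsj3 for Hes1 (0.69 or more). For the factors below the filter they were Spata2L, Trub2 and Arhgap5 for Neurog3, Rap1gap2, Cul2 and Thrb for Pax6, and Vdac3, Fkbp7 and Egflam for Isl1.

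Finally, each factor was set against the mean level of its products over the rats of a region, in 12 relations, all with exact permutation of the pairings (two-sided, 9 rats). None passed after Benjamini-Hochberg adjustment over the 12. Neurod1 and the enteroendocrine mean had r = 0.83 in distal colon (exact permutation p = 0.00666, adjusted p = 0.0800; rho = 0.73, exact p = 0.0311, adjusted p = 0.187), and r = 0.60 without rats 1 and 2, which lay farthest from the median. In proximal colon the same relation had r = 0.29 (exact permutation p = 0.438, adjusted p = 0.478; rho = 0.37, exact p = 0.336, adjusted p = 0.576), r = 0.77 without rats 3 and 10, and r = 0.81 without rats 3 and 6 (exact adjusted p = 0.0873). Spdef and the mean of 20 goblet products had r = 0.54 in distal (exact permutation p = 0.136, adjusted p = 0.408; rho = 0.53, exact p = 0.148, adjusted p = 0.426) and r = 0.00328 in proximal colon (exact permutation p = 0.994; rho = 0.33, exact p = 0.385). The remaining 8 relations had r of -0.41 to 0.63 (exact permutation, adjusted p = 0.408 to 0.478) and rho of -0.65 to 0.75 (exact permutation, adjusted p = 0.187 to 0.912), and of these Isl1 and the enteroendocrine mean in proximal colon had r = -0.41, and -0.88 without rats 3 and 6 (exact adjusted p = 0.0873). Of the 20 goblet genes, 8 had r above 0 with Spdef in both regions, against 28.4% of all genes. The proximal r of Spdef with the goblet mean includes rat 3, and without rats 3 and 6 it was 0.18. The relations also moved with the scaling as deposited, where none passed. Neurod1 then had r = 0.65 in distal (exact permutation adjusted p = 0.181) and 0.42 in proximal colon. Spdef had r = 0.83 in distal (exact permutation adjusted p = 0.116) and 0.37 in proximal colon. Neurog3 had r = -0.75 with the enteroendocrine mean in distal colon (exact permutation adjusted p = 0.181).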

How the data were processed

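Gene expression was measured in 9 distal and 9 proximal samples of colonic mucosa, 1 Affymetrix array each, from 4.5 µg of RNA. The deposited values are linear signal intensities. The submitters' processing notes name MAS5 as the tool the authors used, without a version or a scaling target. Between arrays the trimmed mean (2% at each end) differed 1.62-fold, so log2(intensity + 16) was quantile normalized, which removes any overall shift between the regions. Of 31099 probe sets 31042 were not controls, and 20826 of these had 1 symbol in the array annotation, which can be old, 436 had several and 9780 were unnamed here. A gene table (GRCr8) held 20758 of the 20826 and changed 0 symbols. Columns of no sample numbered 0. Rat 9 and the 2 allocation groups of the rats, which the labels do not assign, were not analysed here.

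After the lowest 30% by mean level were left out, 21729 probe sets were tested with limma 3.58.1 in R 4.3.3 (lmFit, eBayes with trend, two-sided, no block, Benjamini-Hochberg). A gene was represented by its probe set with the highest mean. On simulated arrays, 88.5% of 200 probe sets changed by a log2 value of 1 were recovered among 21729. These arrays were drawn independently, without pairs or arrays that stand apart, and 5762 probe sets passed in the data. The recovered share therefore does not describe the test on the data. Intervals are 95% limma intervals, and the number of arrays limits the precision. The rat numbers pair the arrays, since the labels give both regions the same animal number. Deviations of a rat's 2 arrays correlated with r of 0.000945 to 0.569 (median 0.226), against a median of -0.03 between rats. No pair of arrays shared more than 0.00644% of its values. The members, lists and named genes (every member, and of each list up to 4 called genes with the largest differences and 2 with the highest level, and the 3 genes closest to each member) were chosen with earlier results of these data known. Beyond that rule, genes of short counts, hormones, transcription factors and genes below the filter that passed were named after their values were seen. Alternatives are given in the closing section. Python 3.11.15 with numpy 2.4.6, pandas 2.3.3, scipy 1.17.1 and matplotlib 3.10.9 served for the rest.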

Additional observations from a re-analysis of the deposited data

Results flagged for a closer look

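In groups of 9 arrays a value was picked out when its gap to the next one, over the range of the group, was above Dixon's critical value for 9 samples, which chance does in about 1 in 20 groups. The distal array of rat 10 had a Neurog3 log2 level of 5.34, against 4.12 to 4.56 in the other distal arrays, and its deposited intensity was 19.2. The proximal array of rat 3 had a Spdef log2 level of 10.60, against 9.91 to 10.21 in the other proximal arrays. This array also had the highest smooth muscle mean of the 18, 12.11, whose part in the Spdef value was not tested.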

How the results depend on the processing

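Neurod1 kept its direction and its call in all 19 alternatives: the scaling as deposited, arrays centred on their medians, pseudocounts of 1 and 64, no filter, the lowest 50% left out, the mean of probe sets, rat as a replicate block, each rat left out, no proximal arrays of rats 3 and 6, and removal of the 3 arrays with the highest smooth muscle means. For Neurog3, Pax6 and Isl1, which lie below the filter, each alternative was run without the filter, a choice made after seeing the data. With the replicate block no call of a member changed (adjusted p = 1.64e-06 for Neurod1, -1.81, and 0.0405 for Neurog3, limma). That block gave 3815 probe sets higher and 3241 lower in distal colon, in place of 3105 and 2657. Neurog3 did not pass with arrays centred on their medians (-0.56), the mean of probe sets (-0.63), a pseudocount of 64 (-0.25) or without the 3 smooth muscle arrays (-0.66), and ran from -0.72 to -0.51 with a rat left out. Spdef turned to -0.053 with the scaling as deposited. Hes1 turned to -0.079 with that scaling, -0.030 without the 3 arrays and -0.012 when the proximal arrays of rats 3 and 6 were removed, and ran from -0.031 (without rat 3) to 0.078 with a rat left out. Leaving out a rat gave -0.13 to 0.013 for Pax6 and 0.29 to 0.45 for the first Isl1 set. With the scaling as deposited, where the median of all genes was -0.10 against 0.01, 788 probe sets were higher in distal colon in place of 3105, and 1 other factor, 3 Notch genes and 0 goblet genes were higher. The other factors higher in distal colon numbered 2 with median centring and 2 without the 3 arrays, and 2 to 4 with a rat left out (2 without rat 8), and those lower numbered 2 with the lowest 50% left out, where fewer genes were tested. Goblet genes higher numbered 1 without the 3 arrays and 1 to 3 with a rat left out (1 without rat 3 or rat 5). Of 152 counts of the 4 related lists, 142 were within 1.5 times the count given. The relation of Neurog3 with the enteroendocrine mean in proximal colon turned to r = 0.051 without rats 3 and 6, and those of Isl1 to -0.086 in distal and 0.033 in proximal colon with the scaling as deposited. Except as stated, the cause was not tested. Signals near the background limit Neurog3, Pax6 and Isl1.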
